A study of Mus musculus with 2 samples.

Results

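The 9 genes described here build the anchors that hold a basal keratinocyte to its basement membrane: the integrin subunits Itga6, Itgb4, Itga3, Itgb1 and Itga2, the hemidesmosome genes Col17a1 and Dst, and the laminin-332 chains Lama3 and Lamb3. They were chosen as a named list, and all 9 were found among the 30406 gene identifiers shared by both count matrices. Their unique molecular identifier (UMI) counts were followed across the 10 clusters named by the authors, 4 in the normal library and 6 in the wounded library. Cells of the mouse anorectal junction were profiled as single-cell RNA in 1 library of uninjured tissue and 1 library taken 1 week after an EDTA wound. Both libraries came from C57/BL6J mice that carried the K17CreERT2 and R26RGFP alleles and were given tamoxifen, so the reporter was common to both. The time since tamoxifen differed. By the paper's account, normal cells were isolated after 2 days of tamoxifen. Wounded mice were wounded the day after their injections and sampled 1 week later. Per the methods, mice to be wounded were given METACAM and isoflurane, and an electric brush was used after the EDTA. The methods give an age of 2 to 4 months for mice that were wounded and of 6 to 8 weeks for the genetic models in general, without saying which holds for the normal library. The methods give pools of at least 5 mice for cell isolation, with no separate number for the wounded library. Cells were sorted for EpCam after exclusion of CD45, CD11b, CD31 and PDGFRa. The Cre is driven by the Krt17 promoter, and the reporter was not used to choose cells here.

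A hemidesmosome is a rivet between the keratin filaments of a basal cell and the underlying basement membrane. Its core is the α6β4 integrin, made from Itga6 and Itgb4, which binds laminin-332 outside the cell and is joined by the transmembrane collagen Col17a1 and by plakins, among them Dst, whose epithelial form (BP230) reaches the keratins. The same laminin is also bound by α3β1, made from Itga3 and Itgb1, while α2β1, with the Itga2 chain, binds collagens and laminins. In stratified epithelia these genes are known to be active in the layer that touches the basement membrane and to be shut off as cells move up. Simple epithelia such as the rectum attach through integrins and laminins too, but their α6β4 contacts lack Col17a1 and BP230.

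With 1 library per condition and mice pooled within it, no difference below has a replicate check and no test of condition was possible. Levels are given as CPM, the UMIs of a gene in each 1000000 UMIs summed over the cells of a group, and every interval is a 95% interval that covers counting error only. A gene was called past 2-fold where its ratio was at least 2-fold in size, its interval excluded no change, and both groups together held at least 20 UMIs. Clusters were made by the authors from the same counts, so differences between clusters are a description. Reads come from the 3' ends of transcripts and are summed per gene, so the epithelial, neuronal and muscle forms of Dst, and the forms of Lama3 and Itga6, could not be separated.

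The normal library held 17617944 UMIs in 2564 barcodes and the wounded library 88260050 UMIs in 17216 barcodes, of which 1548 and 5225 passed the authors' stated limits. The deposited clusters hold 939 normal and 4147 wounded cells, and their median depth ran from 8437.5 to 11543 UMIs per cell in the normal clusters and from 8532 to 12616 in 5 of the 6 wounded ones. Hybrid cells were shallower, at 2390 UMIs. The median share of mitochondrial UMIs was 4.28% to 9.26% in the normal and 5.91% to 12.9% in the wounded clusters, and its part in the differences between libraries was not tested. By their file headers the 2 libraries were counted with different Cell Ranger versions, although the methods name 1, and their gene lists differ, which cannot be told apart from the wound. No barcode was shared between the deposited cells of both libraries.

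The cluster names were checked against marker genes, and at least 3 of them need care. Cells named Basal in the wounded library carried the suprabasal and anal canal genes Krt13 (1443 CPM), Krt1 (2473 CPM), Krt10 (1987 CPM) and Krtdap (3141 CPM), which stood at 3.0, 17.4, 48.4 and 183 CPM in normal Basal cells and at 811.9, 2286, 2228 and 3797 CPM in the normal Anal Canal cluster. Of the 1032 wounded cells named Suprabasal, 659 had under 500 CPM of Krtdap, a gene of differentiating keratinocytes, and the median Krtdap level per cell was 52.3 CPM against 7433 CPM in normal Suprabasal cells. Hybrid cells were a mixture, described below, and were the deposited cells with endothelial genes, the 8 markers summing to 159.8 CPM there against 2.81 to 11.4 CPM in the 9 other clusters. In the repeated clustering the cluster led by wounded Basal cells had endothelial genes among its leading genes, but it also took in Hybrid cells and cells outside the tables, and the deposited wounded Basal cells had 5 of these 8 markers at 0 UMIs. The normal cluster led by Anal Canal cells also scored best for endothelial genes, whereas the deposited Anal Canal cells summed to 7.76 CPM with 4 of 8 markers at 0 UMIs. The Rectum clusters carried the markers of a simple epithelium, with Krt8 at 2741 CPM in normal and 2386 CPM in wounded cells and Krt5 at 29.8 and 81.3 CPM. In the repeated clustering, the normal cluster led by Rectum cells (69 cells) scored best for enteroendocrine genes, with Chgb and Pyy among its leading genes. In the wounded library a cluster led by Hybrid cells did so. The part of enteroendocrine cells in the Rectum values was not tested.

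The members lie on 7 chromosomes of the mouse genome (GRCm38, GENCODE M21): Dst and Lamb3 on chromosome 1, Itga6 on 2, Itgb1 on 8, Itgb4 and Itga3 on 11, Itga2 on 13, Lama3 on 18 and Col17a1 on 19. The promoters of Col17a1 and Itgb1 are printed. Col17a1 was the member that separated stratified from rectal cells most widely. Itgb1, like Itga6 and Itgb4, stayed within 2-fold of Basal in the Rectum cluster of both libraries. They come from RefSeq (GRCm38.p6), lie at chr19:47691993-47692292 on the minus strand and at chr8:128685404-128685703 on the plus strand, and run 5' to 3' from 250 bases before to 50 after the transcription start. Capitals mark the matched motif, a p53-family half-site from base 266 in Col17a1 and a GC box from base 100 in Itgb1.
Col17a1: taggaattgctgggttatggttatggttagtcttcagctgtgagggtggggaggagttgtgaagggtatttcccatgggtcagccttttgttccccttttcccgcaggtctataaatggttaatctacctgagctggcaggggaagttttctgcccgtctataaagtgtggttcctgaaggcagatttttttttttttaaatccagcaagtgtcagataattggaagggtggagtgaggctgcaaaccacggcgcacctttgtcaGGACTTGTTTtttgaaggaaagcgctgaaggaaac
Itgb1: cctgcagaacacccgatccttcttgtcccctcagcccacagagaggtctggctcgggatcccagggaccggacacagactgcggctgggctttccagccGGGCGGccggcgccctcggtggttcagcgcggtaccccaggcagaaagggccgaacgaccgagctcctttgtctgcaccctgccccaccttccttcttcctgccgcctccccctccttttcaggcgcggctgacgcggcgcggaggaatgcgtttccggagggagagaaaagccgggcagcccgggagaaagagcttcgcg
Windows were available for Dst, Lamb3, Itgb1, Itga3, Itga2 and Col17a1, 9 windows in all, and not for Itga6, Itgb4 and Lama3. The GC box GGGCGG, searched on both strands, was in 5 of the 9 windows and in 35.7% of all 32851 promoter windows. The p53-family half-site was in 1 of 9, against 8.36% of all, and the AP-1 site TGANTCA in 1 of 9 (Itga3), against 7.81%. A match is a description of the letters in the window only.

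In the normal library 8 of the 9 members were higher beyond their intervals in both the Anal Canal and Basal clusters than in Suprabasal cells. The sparse Itga2 was so in Anal Canal, at 8.90 CPM (6.33 to 12.2) against 0.876 CPM (0.106 to 3.17). In Basal its interval overlapped that of Suprabasal. Col17a1, the collagen of the hemidesmosome, was at 176 CPM (160 to 192) in Basal, 283 CPM (268 to 300) in Anal Canal, 39.4 CPM (31.7 to 48.5) in Suprabasal and 0 CPM in Rectum, where 0 UMIs in 63 cells allow up to 4.26 CPM (3 UMIs). Itga6 was at 123 CPM in Basal, 176 CPM in Anal Canal, 138 CPM in Rectum and 49.9 CPM in Suprabasal. Its partner Itgb4 followed the same order at a lower level, with 55.8, 96.1, 59.6 and 22.3 CPM in those clusters. Thus α6β4 transcripts were present in rectal cells at about the Basal level, with overlapping intervals, while Col17a1 was not seen there. Dst was at 125 CPM in Basal, 144 CPM in Anal Canal, 39.8 CPM in Rectum and 18.4 CPM in Suprabasal.

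**Figure D1:**
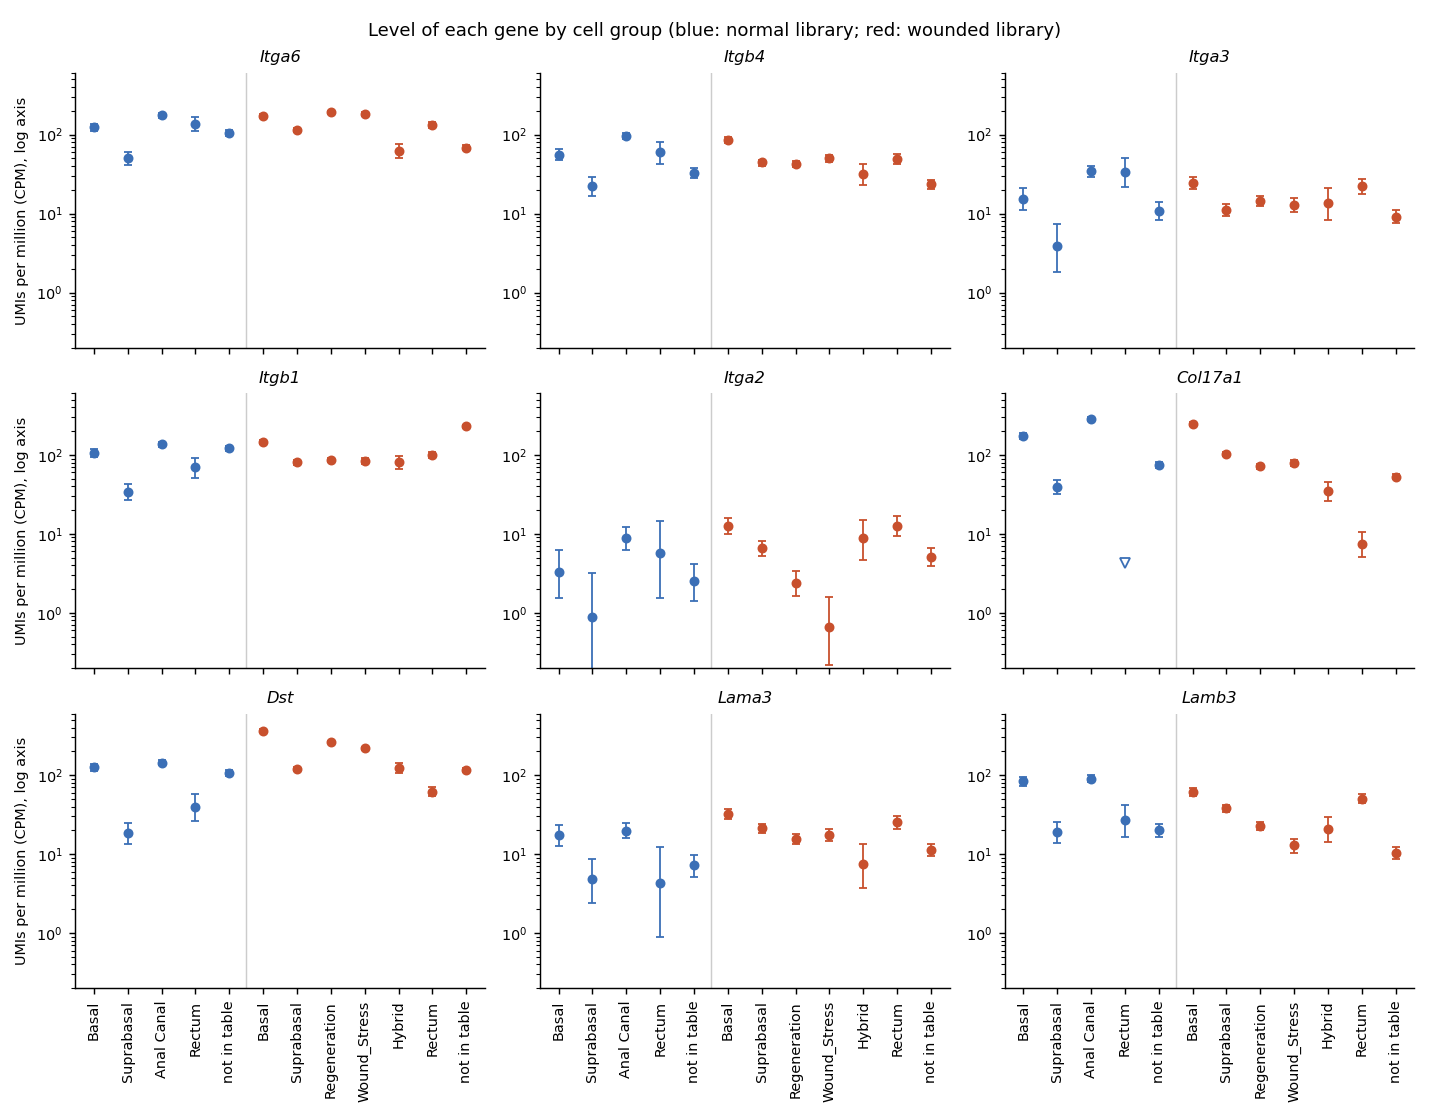
Levels of the 9 members in the normal and wounded clusters and in filter-passing cells outside the deposited tables, as CPM on a log axis; points are summed UMIs, bars are 95% counting intervals, and a downward open triangle is a group with 0 UMIs drawn at the level of 3 UMIs. Col17a1 is at 0 UMIs in normal Rectum and 7.54 CPM in wounded Rectum, while Itga6 stays between 49.9 and 192 CPM in all 10 clusters.

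The other members of the normal library also had lower values in Suprabasal than in Basal or Anal Canal, while the place of Rectum varied. Itgb1, the shared β1 chain, was at 106 CPM in Basal, 136 CPM in Anal Canal, 69.6 CPM in Rectum and 34.2 CPM in Suprabasal. Itga3 was highest in Anal Canal (34.2 CPM) and Rectum (34.1 CPM), which did not differ beyond their intervals, then 15.5 CPM in Basal and 3.94 CPM in Suprabasal. The laminin chain Lamb3 was at 84.3 CPM in Basal and 90.4 CPM in Anal Canal, which also overlapped, and at 27.0 CPM in Rectum and 18.8 CPM in Suprabasal. Its partner Lama3 was sparse, at 17.4, 19.9, 4.26 (3 UMIs) and 4.82 CPM in Basal, Anal Canal, Rectum and Suprabasal cells. Itga2 was the lowest member in Basal, Anal Canal and Suprabasal cells, at 3.33, 8.90 and 0.876 CPM, and stood at 5.68 CPM (4 UMIs) in Rectum.

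Against normal Basal cells, normal Suprabasal cells were lower past 2-fold in 8 of the 8 members that reached 20 UMIs, where 15.7% of the 9682 genes with as many UMIs were lower and 6.22% higher. The median of all genes in this comparison was -0.29 on the log2 scale, and the median of the 8 members was -1.91. Dst was lowest, 6.81-fold below Basal (log2 ratio -2.77, -3.27 to -2.30). Lamb3 and Col17a1 were 4.47-fold and 4.45-fold lower, Itga3 3.94-fold, Lama3 3.61-fold, Itgb1 3.1-fold, and the pair Itgb4 and Itga6 2.50-fold and 2.47-fold lower. Itga2, with 9 and 2 UMIs, was too sparse to compare. Thinned to 2000 UMIs, 82 of 255 normal Basal cells (32.2%) kept a Col17a1 UMI, against 13 of 183 Suprabasal cells (7.10%) and 0 of 60 rectal cells, a count that allows up to 5.0%; median depths were 9971, 11543 and 10885 UMIs. Without thinning the shares were 73.9%, 27.8% and 0%.

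Normal Anal Canal cells differed less from Basal cells. Itga3 was 2.21-fold higher (log2 ratio 1.14, 0.64 to 1.67) and Itga2 2.68-fold higher (1.42, 0.35 to 2.65), 2 of 9 members where 7.97% of 10571 genes were higher and 9.68% lower, and no member was lower past 2-fold. Both of these α chains pair with β1. Itga2 rests on 9 and 39 UMIs.

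Rectal cells had little or no Col17a1 and less Dst, and contained transcripts of the integrin chains. In normal Rectum over normal Basal, 4 of 8 members were lower past 2-fold and 1 was higher, with 14.1% and 16.5% of 9366 genes. Col17a1 was 41.2-fold lower as a bound set by 3 UMIs, with an interval from a log2 ratio of -5.06 down. Lama3 was 4.08-fold, Dst 3.15-fold and Lamb3 3.12-fold lower, and Itga3 was 2.20-fold higher. Lama3 rests on 3 rectal UMIs, and as a mean of per-cell CPM its log2 ratio turned to 0.51. In wounded Rectum over wounded Basal, 2 of 9 members were lower and 0 higher, with 11.9% and 18.7% of 11902 genes. These were Col17a1, 32.8-fold lower (log2 ratio -5.04, -5.60 to -4.53), and Dst, 5.86-fold lower. Itga6 was at 133 CPM, Itgb4 at 49.1 CPM and Itgb1 at 99.7 CPM in wounded Rectum, and these 3 chains stayed within 2-fold of Basal in both libraries. All 3 were lower in wounded Rectum with intervals excluding no change, at log2 ratios of -0.38, -0.79 and -0.55. In normal Rectum this held for Itgb1 only, at -0.61 (-1.08 to -0.17). Of the 354 wounded rectal cells with at least 2000 UMIs, 6 (1.69%) kept a Col17a1 UMI on thinning, against 205 of 564 wounded Basal cells (36.3%), with median depths of 9991 and 9075 UMIs.

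**Figure D2:**
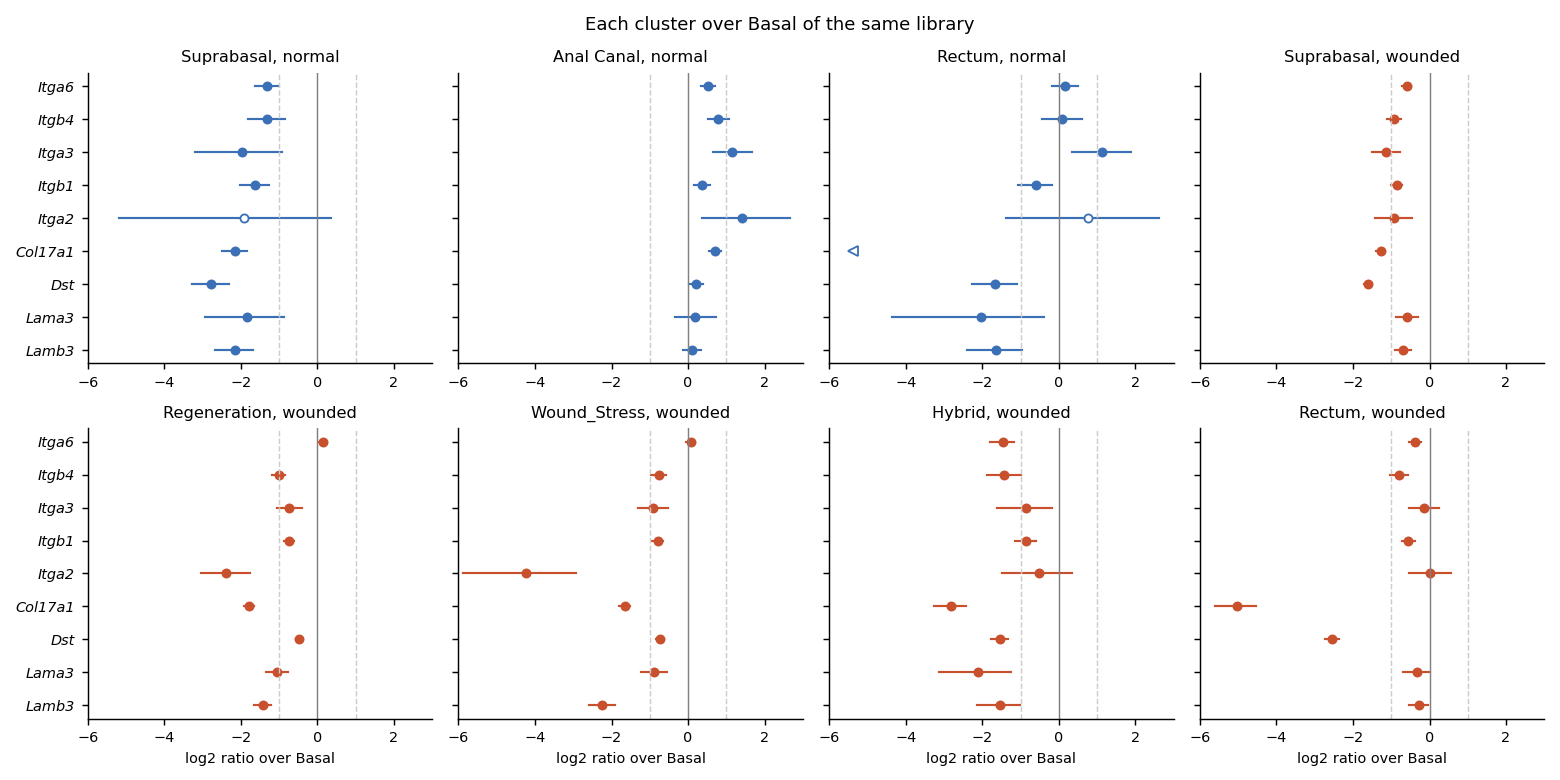
Log2 ratio of each member in a cluster over the Basal cluster of the same library; bars are 95% counting intervals, dashed lines mark 2-fold, an open triangle pointing left is a bound from 0 UMIs and an open circle a gene under 20 UMIs. Col17a1 lies farthest left in both Rectum comparisons, at -5.37 (bound) and -5.04, and Dst at -2.77 in normal Suprabasal.

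In the wounded library 8 of the 9 members were highest in cells named Basal or did not differ there from the highest cluster beyond the intervals, and Itga6 was the exception. Itga6 was at 192 CPM (185 to 200) in Regeneration, 182 CPM in Wound_Stress, 173 CPM (163 to 184) in Basal, 133 CPM in Rectum, 114 CPM in Suprabasal and 62.7 CPM in Hybrid cells. Dst was the most abundant member, at 364 CPM in Basal, 263 CPM in Regeneration, 219 CPM in Wound_Stress, 125 and 119 CPM in Hybrid and Suprabasal and 62.0 CPM in Rectum. Col17a1 was at 248 CPM in Basal, 102 CPM in Suprabasal, 78.4 and 71.7 CPM in Wound_Stress and Regeneration, 35.1 CPM in Hybrid and 7.54 CPM (31 UMIs) in Rectum. These 3 members therefore had different orders across the wounded clusters.

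Among the integrin chains, Itgb4 was at 85.0 CPM (77.6 to 92.9) in wounded Basal cells and lower in the other clusters, down to 31.7 CPM in Hybrid, with 49.1 CPM in Rectum, 44.4 CPM in Suprabasal and 42.1 CPM in Regeneration. Itgb1 was at 146 CPM in Basal, 99.7 CPM in Rectum, 86.8 CPM in Regeneration, 84.2 CPM in Wound_Stress, 80.6 CPM in Suprabasal and 80.2 CPM in Hybrid, and the last 4 did not differ beyond their intervals. Itga3 was at 24.4 CPM in Basal and 22.1 CPM in Rectum, which overlapped, and between 11.1 and 14.6 CPM in the other 4 clusters. Itga2 had the widest spread of the integrin chains, with 12.7 CPM in Rectum, 12.5 CPM in Basal, 8.77 CPM in Hybrid, 6.57 CPM in Suprabasal, 2.38 CPM in Regeneration and 0.670 CPM in Wound_Stress. The laminin chains were both at their highest in Basal and Rectum cells, whose intervals overlapped, and as a mean of per-cell CPM the Rectum was higher for both (48.8 against 39.0 CPM for Lama3, 85.3 against 76.5 CPM for Lamb3). From summed UMIs Lama3 was at 32.1 CPM in Basal, 25.3 CPM in Rectum, 21.2 CPM in Suprabasal, 17.3 CPM in Wound_Stress, 15.5 CPM in Regeneration and 7.42 CPM in Hybrid. Lamb3 was at 61.2 CPM in Basal, 50.4 CPM in Rectum, 37.9 CPM in Suprabasal, 22.7 CPM in Regeneration, 20.9 CPM in Hybrid and 12.9 CPM in Wound_Stress. In the Rectum cluster 1 cell held 18 of the 207 Lamb3 UMIs.

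Regeneration cells held Itga6 at the Basal level or above and were lower past 2-fold in 5 other members. Over wounded Basal 5 of 9 were lower and 0 higher, with 13.4% and 11.1% of 12332 genes and a median of all genes of -0.13. The α2 chain Itga2 was 5.26-fold lower, Col17a1 3.45-fold (log2 ratio -1.79, -1.91 to -1.67), Lamb3 2.70-fold, Lama3 2.07-fold and Itgb4 2.02-fold lower. The log2 ratio of Itga6 was 0.15 and that of Dst -0.47, while Itga3 and Itgb1 also lay below Basal within 2-fold. Itgb4 and Lama3 lie near the 2-fold limit, and the count was 3 in cells under 10% mitochondrial UMIs, without a share of all genes computed there. One Regeneration cell held 59 of the 3419 Dst UMIs.

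Wound_Stress cells had a like profile with fewer members past the limit, 3 of 9 lower and 0 higher, with 12.5% and 9.80% of 11833 genes. Itga2 was nearly absent, with 5 UMIs in 838 cells, 18.7-fold lower than in Basal cells (log2 ratio -4.23, -5.89 to -2.94). After thinning it was seen in 0 of 818 cells, which allows up to 0.367%, against 14 of 564 Basal cells (2.48%), with median depths of 8532 and 9075 UMIs; unthinned shares were 0.477% and 9.60%. Lamb3 was 4.75-fold lower, at 12.9 CPM, and Col17a1 3.16-fold lower. Itga6 had a log2 ratio of 0.07.

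Hybrid cells were lower past 2-fold in 6 of 9 members and higher in 0, with 5.54% and 12.5% of 11201 genes and a median of all genes of 0.21. Col17a1 was 7.07-fold lower than in Basal cells, Lama3 4.32-fold, Lamb3 2.93-fold, Dst 2.91-fold, Itga6 2.76-fold and Itgb4 2.68-fold. The cluster was not of 1 kind. When the library was clustered again without the listed genes, 147 of its 316 cells grouped with Basal cells and carried the hair root sheath keratins Krt25 (1555 CPM) and Krt71 (1002 CPM), with Itga6 at 44.2 CPM. A further 27 formed a cluster of their own with the enteroendocrine genes Pyy (100959 CPM) and Chgb (10429 CPM), in which Itgb4, Col17a1, Lama3 and Lamb3 had 0 UMIs, which allows up to 12.7 CPM, while Itga6 was at 93.2 CPM and Dst at 254.3 CPM. The remainder grouped with Wound_Stress (55 cells), Suprabasal (45), Rectum (24) and smaller clusters, and 132 Hybrid cells held under 2000 UMIs.

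Wounded Suprabasal cells stood closer to wounded Basal cells than was the case in normal tissue, with 3 of 9 members lower past 2-fold and 0 higher (10.8% and 9.19% of 12291 genes, median of all genes -0.14). These were Dst, 3.06-fold lower, Col17a1, 2.43-fold, and Itga3, 2.21-fold. In cells under 10% mitochondrial UMIs the count was 6, and in cells that the repeated clustering put with their own name 5. The share of all genes was not computed for either setting. As given above, 659 of these cells had little Krtdap, so both libraries were also read along the Krtdap level within a cluster.

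Members fell with rising Krtdap in each cluster that spanned its range. Cells at or above 5000 CPM of Krtdap were compared with cells under 500 CPM, a split chosen after the data were seen. Lower past 2-fold were 6 of 6 members tested in normal Suprabasal (13.3% of 6329 genes) and 8 of 8 in normal Anal Canal (8.61% of 6827). In wounded cells they were 9 of 9 in Basal (15.4% of 8527) and 9 of 9 in Suprabasal (29.3% of 11030). The median log2 ratio of all 9 members, tested or not, was -1.96, -1.57, -3.40 and -3.14 in these clusters. In normal Suprabasal that median is the value of the untested Itga3 and Itga2, and the tested members ran from -3.32 to -1.25. In wounded Suprabasal cells Col17a1 went from 178.1 to 41.1 to 11.9 CPM over the low, middle and high ranges, Dst from 204.2 to 56.4 to 13.7 CPM and Itga6 from 173.7 to 77.2 to 36.9 CPM. In wounded Basal cells Col17a1 went from 388.8 to 266.9 to 31.4 CPM, Dst from 477.5 to 412.9 to 111.6 CPM and Itga6 from 251.9 to 177.9 to 66.8 CPM. Cells of the high range were deeper: in wounded Suprabasal the median was 8468, 13682 and 16484 UMIs, and 1 other gene, Cst6, took 139725 CPM in the high range. UMIs per cell are not divided by the total, but they rise with the depth of a cell. By this measure the fall was smaller in places. It was at least 2-fold in 6 of 6 members in normal Suprabasal and 9 of 9 in wounded Basal. The fall was at least 2-fold in 8 of 9 in wounded Suprabasal (not Lama3) but only 3 of 8 in normal Anal Canal. There the folds ran from 1.16 to 3.25. Some cells lay near a limit: 24 wounded Suprabasal cells were within 25% of the lower one and 49 within 25% of the upper one.

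**Figure D3:**
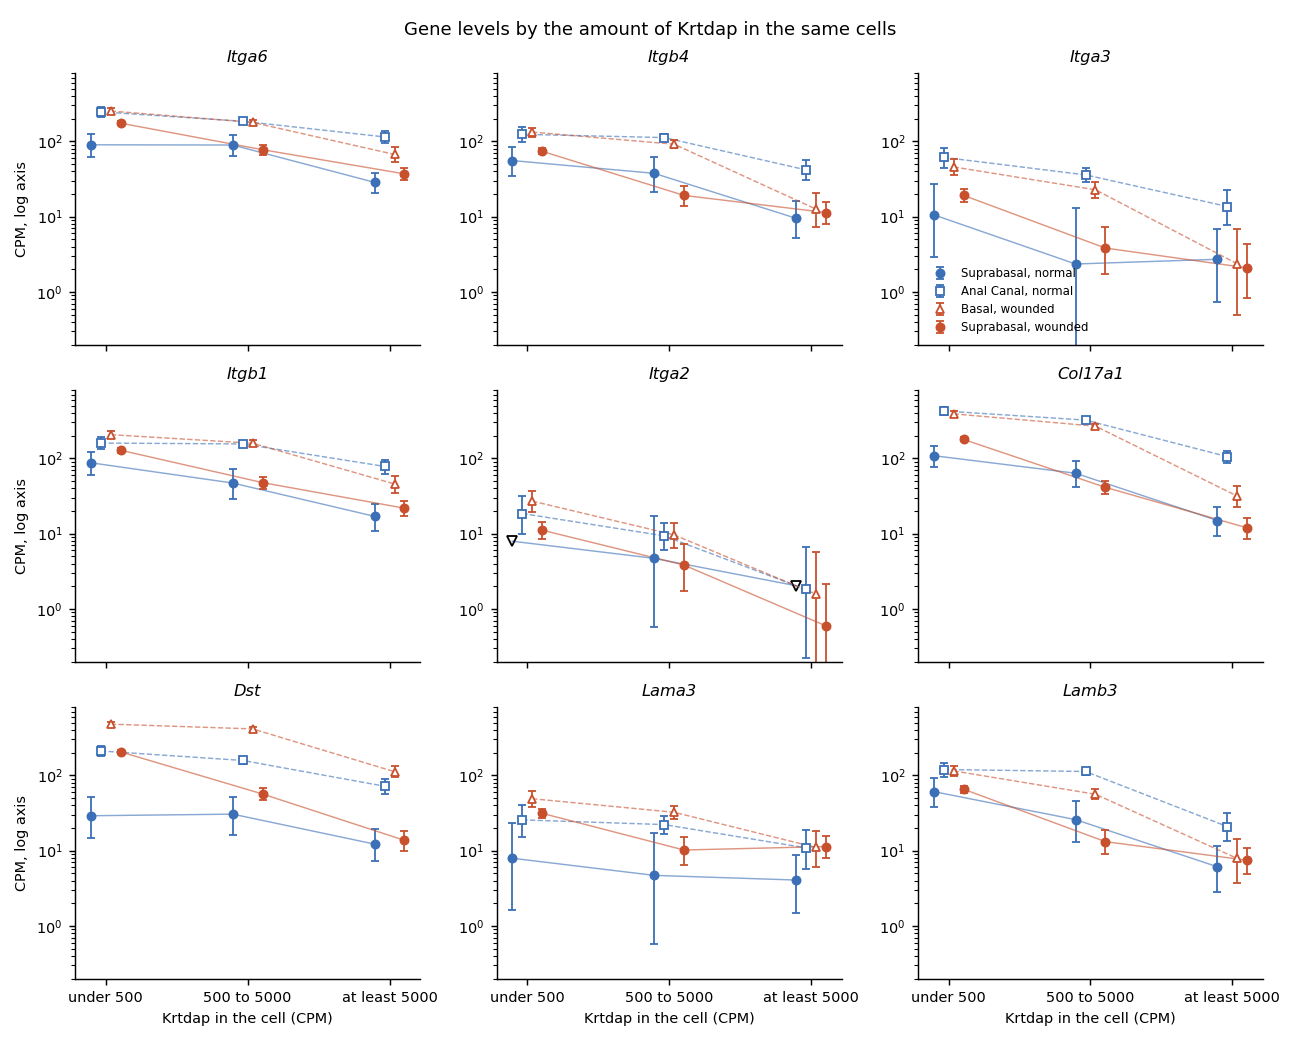
Levels of the members (CPM, log axis) in cells with under 500, 500 to 5000 and at least 5000 CPM of Krtdap, for the Basal, Suprabasal and Anal Canal clusters that span the range; bars are 95% counting intervals and a downward open triangle is 0 UMIs drawn at 3 UMIs. The high range lies below the low one for each gene tested, for Col17a1 in wounded Suprabasal at 11.9 against 178.1 CPM.

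Wounded cells were set beside normal cells of the same name. In Basal cells, 2 of 9 members were higher past 2-fold and 0 lower, with 14.5% and 13.3% of 11035 genes. These were Itga2, from 3.33 to 12.5 CPM (3.77-fold, log2 ratio 1.91, 0.91 to 3.1), and Dst, from 125 to 364 CPM (2.90-fold, 1.54, 1.37 to 1.71). Lamb3 had a log2 ratio of -0.46, at 84.3 CPM in normal and 61.2 CPM in wounded cells. In Suprabasal cells, 8 of 9 were higher and 0 lower, with 12.6% and 5.16% of 11430 genes and a median of all genes of 0.14. Dst was 6.46-fold higher, from 18.4 to 119 CPM, Lama3 4.39-fold, Col17a1 2.59-fold and Itga6 2.29-fold, and Itgb4 had a log2 ratio of 0.99. In Rectum, Lama3 alone was called higher past 2-fold from summed UMIs, with 7.08% of 10197 genes higher and 5.32% lower. It was 5.94-fold higher, on 3 UMIs in normal and 104 in wounded cells, and 1 wounded cell held 16 of the 104. As means of per-cell CPM, Lama3 went from 27.7 to 48.8 CPM, within 2-fold, and Lamb3 from 31.8 to 85.3 CPM, past 2-fold. Col17a1, with 0 normal and 31 wounded UMIs, had only a bound set by 3 UMIs (log2 ratio 0.82, interval from 0.44 up), so its fold is not known. Enteroendocrine cells grouped with Rectum cells in the normal library, as given above, and their part in this comparison was not tested.

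**Figure D4:**
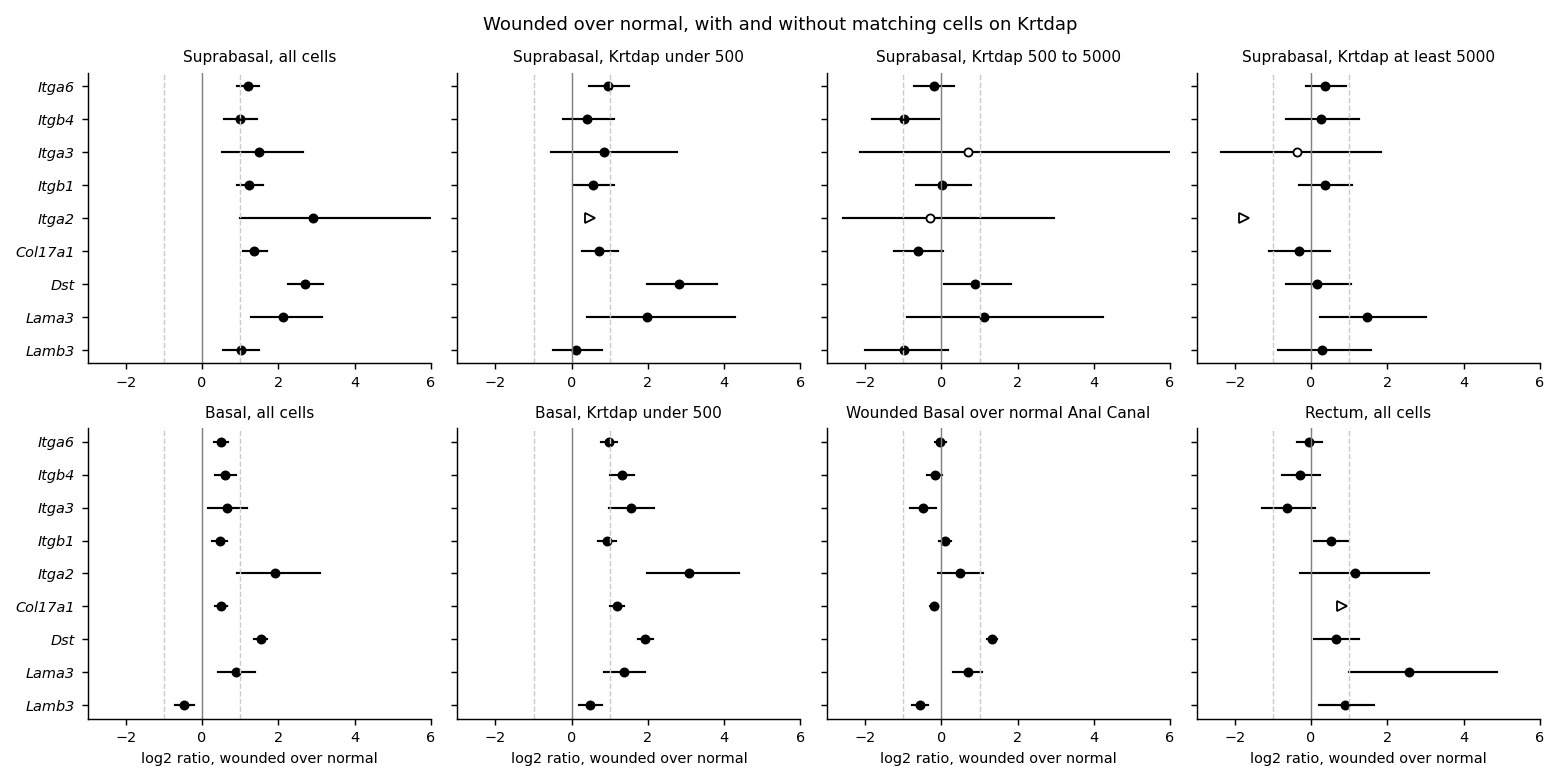
Log2 ratio of each member in wounded over normal cells of the same cluster name, and with cells matched on Krtdap; bars are 95% counting intervals, dashed lines mark 2-fold and open circles are genes under 20 UMIs and open triangles bounds from 0 UMIs. Dst is at 2.69 for all Suprabasal cells. With under 500, 500 to 5000 and at least 5000 CPM of Krtdap it is at 2.81, 0.89 and 0.17.

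The Suprabasal counts were smaller among cells matched on Krtdap, which were also fewer, and the cause was not tested. Among cells with at least 5000 CPM of Krtdap (201 wounded, 115 normal), 1 member was higher past 2-fold, Lama3 with a log2 ratio of 1.48 (5.86% of 8533 genes), and Dst, Col17a1 and Itga6 were at 0.17, -0.32 and 0.38. Between 500 and 5000 CPM (172 and 40 cells) the count was 0 in either direction (5.01% of 7788 genes higher, 7.52% lower). There Itgb4 was lower (-0.97, -1.83 to -0.05) and Dst higher (0.89, 0.07 to 1.84) within 2-fold, with intervals excluding no change. Itga3 and Itga2 held under 20 UMIs in both of these ranges and were not tested in them. Under 500 CPM (659 and 32 cells) 2 members were higher past 2-fold, where 7.31% of 10310 genes were. These were Dst (2.81) and Lama3 (1.98, on 3 normal UMIs). Itga6 (0.95), Col17a1 (0.72) and Itgb1 (0.55) were higher within 2-fold, with intervals excluding no change. Itga2 had 65 wounded and 0 normal UMIs, so its 0.49 is a bound set by 3 UMIs (interval from 0.15 up) and its fold is not known. No member lay below normal there. In Basal cells the count was larger among matched cells. Under 500 CPM of Krtdap (193 wounded, 233 normal) 6 members were higher past 2-fold, with 15.3% of 9710 genes higher, namely Itga2 (3.08), Dst (1.93), Itga3 (1.55), Lama3 (1.38), Itgb4 (1.32) and Col17a1 (1.18). Set against normal Anal Canal cells, whose keratins they share, wounded Basal cells were higher past 2-fold in Dst alone (1.33), with 9.54% of 11087 genes higher and 6.80% lower, and Itga6 and Col17a1 were at -0.03 and -0.19. Dst in Basal cells was thus higher in the wounded library in each of these 3 comparisons, and Lama3 was higher with intervals excluding no change in all 3 (0.88, 1.38 and 0.69), though past 2-fold in 1. Whether the tissue sampled, the pooling of mice, the time since tamoxifen or the wound moved these values cannot be told with 1 library each. The same holds for the drugs given at wounding and for a hair follicle filter that, per the methods, only the normal library had.

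The balance between partner chains also differed. Itgb4 made up 31.1% (27.0% to 35.5%) of the summed Itgb4 and Itga6 UMIs in normal Basal cells, 30.2% in normal Rectum and 32.9% in wounded Basal cells, but 18.0% in Regeneration and 21.6% in Wound_Stress. Lama3 made up 17.1% (12.8% to 22.1%) of the Lama3 and Lamb3 UMIs in normal Basal cells and from 13.6% to 20.4% in all 4 normal clusters. In the wounded library the Lama3 share was 34.4% in Basal, 35.8% in Suprabasal, 40.5% in Regeneration, 57.3% in Wound_Stress, 33.4% in Rectum and 26.2% in Hybrid. The share was higher in wounded than in normal cells for each of the 3 names that both libraries hold, with counting intervals apart in Basal cells. Lama3 and Lamb3 were counted with different gene lists in both libraries, which cannot be told apart from the condition here. Col17a1 made up 75.9% of the Col17a1 and Itgb4 UMIs in normal Basal, 74.5% in wounded Basal, 63.0% in Regeneration and 61.1% in Wound_Stress, against 0% (0 UMIs of Col17a1 beside 42 of Itgb4, which allows up to 7.14%) and 13.3% in normal and wounded Rectum. These are shares of UMIs, and the 3' ends of different genes need not be captured equally well, so a share of 50% is not equal numbers of molecules.

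**Figure D5:**
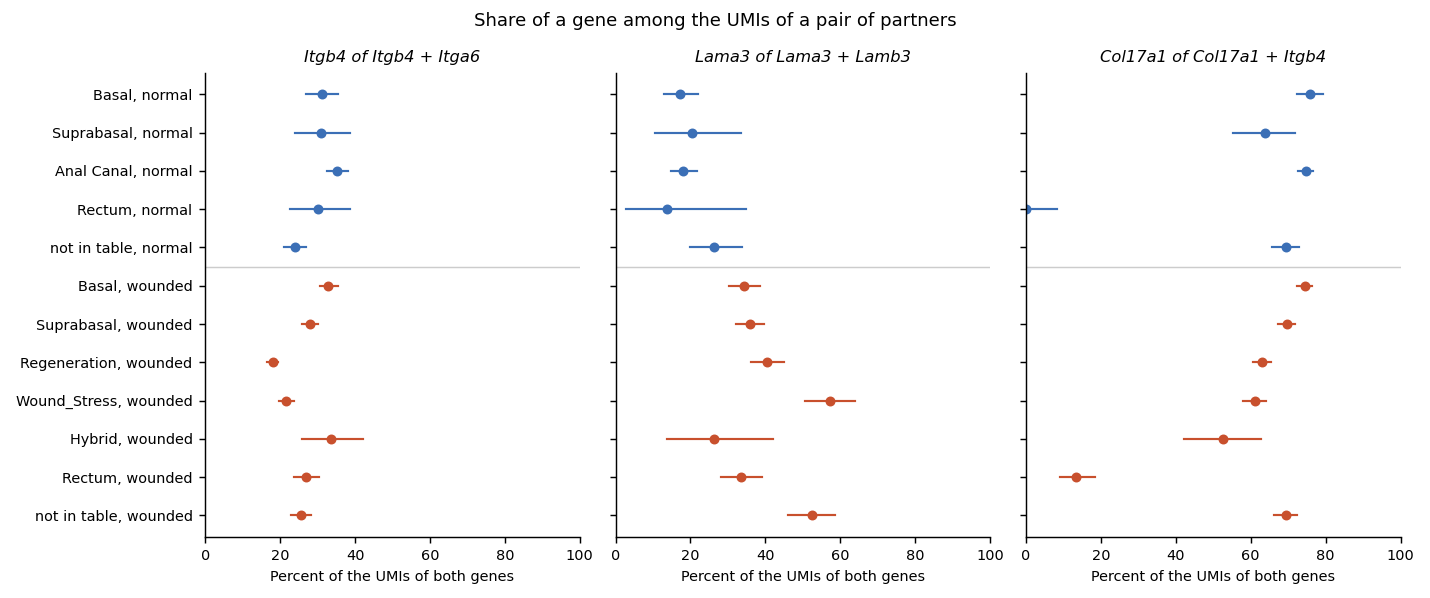
Percent of the UMIs of a pair of partner genes that came from the first of them, by cell group; points are shares of summed UMIs, bars are exact 95% binomial intervals, and the grey line separates the normal from the wounded groups. Itgb4 is at 18.0% in Regeneration against 32.9% in wounded Basal, and Lama3 at 57.3% in Wound_Stress against 17.1% in normal Basal.

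Single cells held few members. After thinning to 2000 UMIs the mean was 1.30 of the 9 members per normal Basal cell, 0.350 in Suprabasal, 1.78 in Anal Canal and 0.750 in Rectum, and 73.2% of normal Suprabasal cells kept none. Wounded Basal cells had 1.88, Suprabasal 1.22, Regeneration 1.2, Wound_Stress 1.2, Rectum 0.949 and Hybrid 0.663. No cell kept more than 8. Dst was kept in 19.6% of normal Basal, 48.2% of wounded Basal, 36.6% of Regeneration and 35.7% of Wound_Stress cells, and in 8.33% and 13.8% of normal and wounded rectal cells. Itga6 varied less, with 22.0%, 31.7%, 29.9% and 32.5% in the first 4 of these and 26.7% and 23.2% in rectal cells. At this depth both α6β4 chains were seen together in 10 of 255 normal Basal cells, while 46 had Itga6 alone and 21 Itgb4 alone.

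Cells that passed the filters but are in no deposited table, 610 normal and 1078 wounded, differed from the deposited cells in some members. Over the deposited cells of their library, 5 of 9 were lower past 2-fold and 0 higher in the normal library (9.50% and 13.3% of 12700 genes, median of all genes 0.14), Lamb3 3.40-fold and Col17a1 2.40-fold lower. In the wounded library 3 were lower and 1 higher (10.1% and 14.0% of 15180 genes, median 0.12), Lamb3 3.16-fold, Itga6 2.30-fold and Itgb4 2.14-fold lower, and Itgb1 2.47-fold higher. By repeated clustering they fell into anal gland-like cells (the largest kind in both libraries, 425 cells in the wounded one), hair follicle-like cells (185 and 144), cells with fibroblast and smooth muscle genes (65 and 314) and cells left unnamed (28 and 195). The cells with fibroblast and smooth muscle genes held the most Itgb1, at 675 CPM in normal and 831 CPM in wounded cells, with Dst at 145 and 170 CPM, Acta2 at 8968 and 6267 CPM and Itga6 at 2.54 and 23.2 CPM. The hair follicle-like cells carried Col17a1 at 174 and 449 CPM, Itga6 at 97.8 and 213 CPM, Itgb4 at 48.5 and 114 CPM and Lama3 at 12.5 and 56.8 CPM. These cells were not alike in both libraries. Inner root sheath genes had a mean log2 ratio of 4.69 in the normal cluster and -1.24 in the wounded one. Anal gland-like cells had Itga6 at 111 and 51.0 CPM, Itgb4 at 29.8 and 9.36 CPM and Lamb3 at 10.2 and 1.21 CPM. Which cells were left out of the tables thus moves with the members' level, and its part in the cluster values was not tested.

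Genes that work beside the members were read from fixed lists. Of 5 hemidesmosome partners (Krt5, Krt14, Plec, Cd151 and Col7a1), 1 was lower past 2-fold in Suprabasal over Basal in each library, Krt5, by 2.28-fold in normal and 2.57-fold in wounded cells, where 15.7% and 10.8% of all genes tested were lower. In Regeneration 3 of 5 were lower, Krt5 3.48-fold, Col7a1, the anchoring fibril collagen, 3.47-fold and Krt14 2.16-fold, with 13.4% of all genes lower, and in Wound_Stress 3 of 5, with 12.5%, Krt5 6.40-fold, Col7a1 5.77-fold and Krt14 3.0-fold. Rectal cells were lower in 4 of 5 in the normal and 3 of 5 in the wounded library (14.1% and 11.9% of all genes), where Krt5 was 34.1-fold, Col7a1 26.5-fold and Krt14 24.8-fold lower. Other basement membrane genes were lower past 2-fold in 6 of 9 tested and higher in 1 in normal Suprabasal over Basal, and lower in 5 of 8 in normal and 9 of 14 in wounded Rectum, with 3 of the 14 higher. In Regeneration 5 of 15 tested were higher (11.1% of all genes) and 3 lower, and in Wound_Stress 6 of 15 higher (9.80%) and 4 lower. In wounded over normal Suprabasal 10 of 14 were higher (12.6%) and 0 lower. Lama4 was at 51.4 CPM in Regeneration and 89.5 CPM in Wound_Stress against 2.26 CPM in wounded Basal, Lamb1 at 47.8 and 60.8 against 11.8 CPM, and Col4a1 at 56.3 and 46.2 against 3.31 CPM. These laminin and collagen chains are also made by mesenchymal and endothelial cells, and their source was not tested. Of the other integrin subunits with the most UMIs, Itgb8, which pairs with Itgav, was 6.70-fold higher in Regeneration and 7.18-fold higher in Wound_Stress than in wounded Basal, and Itgav and Itgb5 stayed within 2-fold there. Of the adaptors and other laminin receptors with the most UMIs, Sdc4 was 3.45-fold higher in Regeneration, and Sdc1 and Rpsa were within 2-fold in both clusters.

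Likeness was measured as Pearson's r of log2 levels over the 10 clusters for 10351 genes, a description over points that share 2 libraries and their depth. Col17a1 was most like Plcd3, Tgfbi and Ccdc3 (r = 0.98 each), and Itgb4 most like S100a10 (0.95). Among the members, Itgb4 was nearer to Itgb1 (0.87, rank 11 of 10350) and Itga3 (0.86, rank 12) than to its partner Itga6 (0.79). Lama3 and Lamb3 had an r of 0.55, and Col17a1 and Itgb4 0.25.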

How the data were processed

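The authors sequenced 10x Genomics 3' libraries of sorted cells, aligned and counted them with Cell Ranger (mm10; the methods state 3.1.0, while the file headers give 3.1.0 for normal and 4.0.0 for wounded) and deposited raw UMI counts per gene and barcode, with 31054 and 32285 genes. They also deposited, per cluster, tables of the kept cells with Seurat values on a natural log scale, from which only cell names and cluster names were taken here. Per the study's methods, barcodes with 200 to 5000 genes and under 25% mitochondrial UMIs were kept, and anal gland, hair follicle and fibroblast clusters were removed. In the normal library alone, a further filter on Lgr5, Lhx2 and Tbx1 took out hair follicle cells mixed into its basal cluster. Per the methods doublets were gated out in the sort, the 5000-gene limit was the only later guard, and no doublet caller was run here.

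Counts were summed per cluster and divided by all UMIs of that cluster to give CPM, with exact Poisson intervals, and ratios had exact binomial intervals. A group at 0 was set to 3 UMIs and its ratio given as a bound. Cells were thinned to 2000 UMIs for shares, with Clopper-Pearson intervals. Cells outside the tables were clustered with the others in Seurat, leaving the listed genes out of the variable genes (Seurat 5.3.0, R 4.3.3), and named from marker lists. The hemidesmosome partners named were all but 1, which is not reported here and is left out of their counts, and for the other lists the 3 with most UMIs. The members and lists were chosen with earlier results of these data known, and the Krtdap ranges and the matched and own-name comparisons were added after seeing the data. Python 3.11.15 with scipy 1.17.1 was used, and the code was tested on simulated data. Alternatives were other folds, UMI minimums, cell filters, scalings and depths.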

Additional observations from a re-analysis of the deposited data

Results flagged for a closer look

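Barcodes that failed the filters, which no comparison uses, held member UMIs too: 662 in the 1015 normal barcodes and 15489 in the 11991 wounded ones. Most of these barcodes were over the mitochondrial limit (1003 and 11900). In the wounded ones Lama3 stood at 40.0 CPM and Lamb3 at 51.2 CPM, against 20.2 and 32.7 CPM in the deposited cells, while Col17a1 was at 26.6 against 96.9 CPM. The totals of the failed wounded barcodes include more mitochondrial UMIs (mean 59.0% per barcode). Their levels are therefore not directly comparable with those of deposited cells.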

How the results depend on the processing

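No paired analysis was possible because each condition has 1 library. Of the counts compared, 114 values under the alternatives stayed within 1.5 times the reported count and 22 did not. All that moved were counts of members past 2-fold. Those that stayed also include counts of members with a larger share in Basal than Suprabasal cells, and of clusters. Of the members' own ratios 498 stayed, 75 moved and 1 past 2-fold reversed (Lama3 in normal Rectum over Basal, 0.51 on the log2 scale as a mean of per-cell CPM). In all 21 values changed sign, the others within 2-fold, among them Itga3, Lama3 and Lamb3 in wounded Rectum over Basal (0.33, 0.32 and 0.16 as means of per-cell CPM). With a 1.5-fold limit the counts became 9 in wounded Suprabasal over Basal, 4 in Anal Canal over Basal, 8 in Wound_Stress over Basal, 5 and 4 in wounded over normal Basal and Rectum, and 8 for wounded cells outside the tables. A minimum of 100 UMIs left 3 in normal Rectum over Basal, 1 in Anal Canal over Basal and 1 in wounded over normal Basal. Cells under 10% mitochondrial UMIs gave 6 in wounded Suprabasal over Basal, 3 in Regeneration over Basal and 2 in wounded over normal Rectum. Means of per-cell CPM gave 6 in Wound_Stress over Basal, centring on the median gene gave 3 in Regeneration over Basal, and leaving out the deepest 10% of cells gave 2 for normal cells outside the tables. Cells that the repeated clustering put with their own name gave 5 in wounded Suprabasal over Basal and 3 in Regeneration over Basal. Chosen after seeing the data, Krtdap matching gave 2, 0 and 1 for wounded over normal Suprabasal and 6 for Basal, and Anal Canal in place of normal Basal gave 1. The cause of these changes was not tested. Except for the Krtdap and Anal Canal comparisons, the share of all genes past the limit was not computed under these alternatives. Their counts therefore show only how the settings move the number of members, and cannot be set against all genes. Depth limits Itga2 and Lama3, with 9 and 3 UMIs in normal Basal and Rectum, and no comparison between libraries has a replicate.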
